A study of Saccharomyces cerevisiae with 14 samples.

Results

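The genes described here encode the machinery that carries proteins between the endoplasmic reticulum (ER) and the Golgi in the yeast Saccharomyces cerevisiae. They are 39 genes taken from a list of names, matched by gene symbol to 1 probe set each, out of 5449 genes read by the array. By role, 9 belong to the COPII coat, 8 are cargo receptors, 12 are tethers and membrane fusion factors, and 10 belong to the COPI coat and its switch. The rule that picks them uses gene names and no measured value, though the list was drawn up with earlier results of these data known.

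RNA was taken from the industrial wine yeast M2, a MATa/α diploid, and from M2 nsf1∆, in which both copies of NSF1, a zinc finger transcription factor gene, were replaced by kanMX4. Both strains fermented filter-sterilised Riesling grape must in unshaken flasks and were sampled 24 h after inoculation and when 20% and 85% of the sugars were fermented. Each of the 6 groups of strain and stage held 2 arrays at 24 h, 2 at 20% and 3 at 85%, which gave 14 arrays in all and 7 per strain. The labels call the arrays of each group biological replicates. The replicate numbers are not tied to flasks in the labels, so the p-values given below measure the spread between these samples, part of which may be technical. No further treatment was applied, and the mutant was a deletion made in this 1 strain background.

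COPII is the coat that buds vesicles from the ER. The GTPase Sar1 recruits an inner layer that picks cargo and an outer layer that shapes the cage, and receptors that span the membrane link soluble cargo to the coat. The vesicle is then held by tethers and fused by SNARE proteins, while the COPI coat, built on the GTPase Arf1, returns receptors and ER residents from the Golgi. In yeast this route feeds the cell surface, the cell wall and the vacuole, and most of its parts are needed for growth.

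Values are RMA log2 intensities, in which a difference of 1 is a change in signal of 2-fold. On this scale the 39 genes read between 5.88 and 13.11. All of them lay above 3.62 on all 14 arrays, the 95th percentile of the probe sets for a different yeast, Schizosaccharomyces pombe, which served as background. Over the 5498 probe sets of S. cerevisiae, array medians ran from 8.87 to 8.95, and arrays of 1 group correlated at 0.9849 to 0.9962 over those probe sets, a description across genes. A difference passed when its adjusted p in limma, a linear model fitted over all probe sets, was under 0.05.

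NSF1 itself checks the strain labels, with readings in M2 of 9.10 and 8.92 (24 h), 10.71 and 9.98 (20%) and 13.12, 12.90 and 13.19 (85%), against 2.95 and 3.58, 3.52 and 4.28, and 3.63, 3.95 and 5.90 in nsf1∆. The value of 5.90, on the array of replicate 3 at 85%, stood apart from the other deletion arrays though far below M2. Results that rest on this array are therefore also given without it. The arrays of replicate 3 at 85% of both strains also deviated together from their groups (r = 0.574 over the probe sets, a description across genes).

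Between 24 h and 85%, most of these genes fell in both strains. In M2, 31 of the 39 fell and 5 rose, and 3 did not pass the test. Over all probe sets tested in M2, 35.2% were lower and 38.0% were higher, and the median change was 0.05 against -0.96 for the 39 genes. In nsf1∆, 30 fell and 6 rose, where 36.0% of all probe sets were lower and 37.0% were higher, and the median was -1.04 against 0.02. The same 30 genes fell in both strains and the same 5 rose in both, and 0 moved in opposite directions. This overlap was not counted over all probe sets, so it is not shown to be particular to these genes. Changes of at least 2-fold were found for 18 lower genes and 1 higher gene in M2, and for 20 lower and 2 higher in nsf1∆. Over all probe sets 18.9% were lower and 20.1% higher by as much in M2, and 18.5% and 18.8% in nsf1∆. These arrays measured bulk cultures and were normalised to one distribution, so fewer cells of a type and less RNA per cell cannot be told apart.

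Without nsf1∆ replicate 3 at 85%, 35 genes passed in nsf1∆, 30 lower and 5 higher, and all 35 were among the 36. Leaving out each array in turn gave 35 to 37 calls in M2 and 33 to 36 in nsf1∆. The gene lost without that array was BET5.

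The classes were then counted apart. Of the 9 COPII coat genes 8 fell in M2 and 0 rose, with a median change of -1.06. All 8 cargo receptors fell, with a median of -1.72, and 9 of the 10 COPI genes fell, with a median of -1.51. The 12 tether and fusion genes divided, with 6 lower, 4 higher and a median of -0.24. In nsf1∆ the counts were 8 of 9, 8 of 8 and 9 of 10 lower for COPII, receptors and COPI, with medians of -1.0, -1.55 and -1.53. For tethers and fusion they were 5 lower and 5 higher with a median of -0.04, whose sign turned without nsf1∆ replicate 1 at 24 h (0.11) and which was -0.19 without nsf1∆ replicate 2 at 24 h. Without the dimmest 25% of probe sets this median was -0.48 in M2 and -0.12 in nsf1∆. These medians describe the lists and were not tested, since the genes of a class are not replicates.

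**Figure D1:**
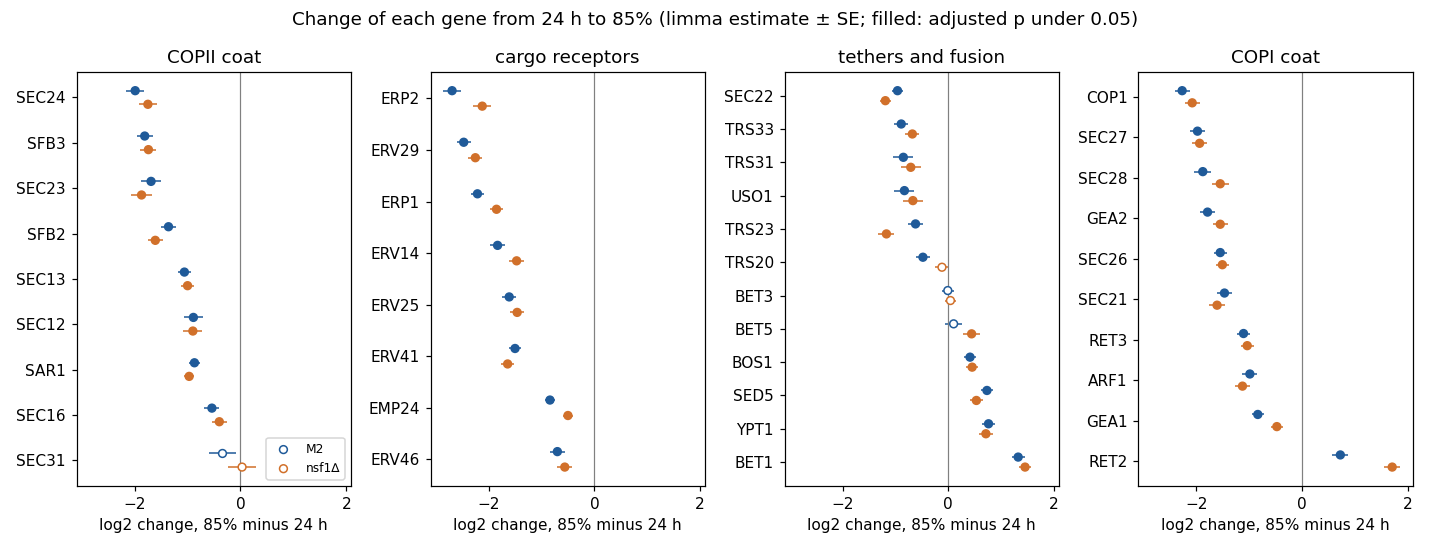
Log2 change of each of the 39 genes from 24 h to 85% fermented, by role class, in M2 (blue) and nsf1∆ (orange). Points are limma estimates, bars are ± SE, and filled points passed at an adjusted p under 0.05. Nearly all points of the COPII, receptor and COPI panels lie left of 0, RET2 being the COPI exception, while the tether and fusion panel runs from SEC22 on the left to BET1 on the right.

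COPII assembly starts with SEC12, the ER membrane protein that loads SAR1 with GTP, and with SEC16, the scaffold of ER exit sites. In M2, SEC12 changed by -0.89 and SAR1 by -0.87 between 24 h and 85% (limma adjusted p = 0.000569 and 4.09e-06). SAR1 passed in the second step of both strains, with -0.74 in M2 and -0.71 in nsf1∆, while its first step of -0.12 ± 0.11 in M2 and -0.26 ± 0.11 in nsf1∆ did not pass (limma adjusted p = 0.369 and 0.0806). SEC12 fell early in M2 and late in nsf1∆, but the early call was lost without M2 replicate 1 at 24 h or at 20% (limma adjusted p = 0.132 and 0.208) and the late one without nsf1∆ replicate 2 at 20% (limma adjusted p = 0.08). SEC16 changed least of the coat genes that passed, by -0.54 in M2 and -0.40 in nsf1∆. The nsf1∆ call of SEC16 was lost without nsf1∆ replicate 1 at 24 h (limma adjusted p = 0.109).

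SEC23, the inner coat subunit that stimulates GTP hydrolysis by Sar1, read 10.44 and 10.58 in M2 at 24 h, 9.99 and 10.03 at 20%, and 8.76, 8.45 and 9.23 at 85%. The nsf1∆ arrays gave 10.49 and 10.46, then 9.79 and 9.80, then 8.55, 8.39 and 8.88. The stages did not overlap in either strain. The whole change was -1.69 ± 0.19 (SE) in M2 and -1.87 ± 0.19 in nsf1∆ (limma adjusted p = 3e-06 and 1.24e-06), a fall of 3.24-fold and 3.65-fold.

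SEC24, its partner, holds the sites that bind cargo, and yeast has the relatives SFB2 and SFB3 (also called ISS1 and LST1), which form coats with other cargo preferences. SEC24 read 9.80 and 9.76, then 9.24 and 9.16, then 7.68, 7.85 and 7.84 over the 3 stages in M2, and 9.78 and 9.78, 9.13 and 9.27, and 8.44, 7.76 and 7.89 in nsf1∆. SFB3 read 9.86 and 10.07, 8.85 and 9.24, and 8.23, 8.16 and 8.08 in M2, and 9.87 and 9.70, 9.21 and 9.24, and 8.22, 8.12 and 7.79 in nsf1∆. Both stepped down at each stage with no overlap between stages. The early nsf1∆ call of SEC24 was lost without any single nsf1∆ array at 24 h or 20%. That of SFB3 was lost without nsf1∆ replicate 1 at 24 h or either nsf1∆ array at 20%. The early M2 call of SEC24 was lost without M2 replicate 1 or 2 at 24 h or M2 replicate 2 at 20%. The whole change in M2 was -1.99 ± 0.17 for SEC24 and -1.81 ± 0.15 for SFB3 (limma adjusted p = 1.42e-07 and 1.63e-07).

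SFB2 took another course. Over the stages in M2 it read 8.57 and 8.64, then 6.59 and 6.92, then 7.12, 7.26 and 7.35. The nsf1∆ values were 8.61 and 8.64, 7.23 and 7.28, and 6.81, 7.14 and 7.11. Its change of -1.84 in M2 by 20% was followed by a rise of 0.49 (limma adjusted p = 0.00659), whereas the second step in nsf1∆ was -0.23 and did not pass. The M2 rise did not pass without M2 replicate 1 at 20% (0.32, limma adjusted p = 0.104). The difference between the strains in this second step was -0.72 and did not pass over all probe sets (limma adjusted p = 0.126).

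The outer cage is made of SEC13 and SEC31, and SEC13 also serves in the nuclear pore. SEC13 fell by 1.06 in M2 and changed by -1.0 in nsf1∆. SEC31 read 8.55 and 8.74 in M2 at 24 h, 8.24 and 8.04 at 20%, and 8.49, 7.60 and 8.80 at 85%, with the value of replicate 2 lower than all the others. Its change was -0.34 ± 0.26 in M2 and 0.03 ± 0.26 in nsf1∆, and neither passed. The M2 value rested on single arrays, being -0.60 and passing without M2 replicate 3 at 85% (limma adjusted p = 0.0329) and 0.00 without M2 replicate 2 at 85% (limma adjusted p = 0.987). In nsf1∆ it rose by 0.69 between 20% and 85% (limma adjusted p = 0.0292), a call lost without nsf1∆ replicate 1 or 2 at 20% (limma adjusted p = 0.122 and 0.0868) and without nsf1∆ replicate 1 or 3 at 85% (limma adjusted p = 0.0602 and 0.0763).

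Among the cargo receptors, ERV29, which packs soluble cargo such as the alpha-factor precursor, fell in M2 from 11.00 and 10.75 at 24 h through 10.13 and 10.26 at 20% to 8.43, 8.50 and 8.30 at 85%. The nsf1∆ arrays read 10.99 and 11.05, 10.56 and 10.75, and 8.94, 8.69 and 8.67. Most of the fall came in the second step, which was -1.78 in M2 and -1.89 in nsf1∆. Its whole change was -2.47 ± 0.13 in M2 and -2.25 ± 0.13 in nsf1∆ (limma adjusted p = 3.32e-09 and 6.68e-09), or 5.53-fold and 4.77-fold. ERV14, the receptor of several membrane proteins, changed by -1.83 and -1.47, also mainly in the second step.

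EMP24, ERV25, ERP1 and ERP2 encode the p24 proteins, which form a complex that packs proteins with a GPI anchor. ERP2 fell most of the 39 genes in M2, from 11.05 and 10.81 at 24 h to 7.86 and 8.11 at 20%, and it read 8.18, 8.17 and 8.37 at 85%. In nsf1∆ it read 10.76 and 10.29, then 8.38 and 8.82, then 8.36, 8.52 and 8.34. The fall lay in the first step in both strains, -2.95 ± 0.19 in M2 and -1.92 ± 0.19 in nsf1∆ (limma adjusted p = 1.87e-07 and 1.44e-05), and the later step passed in neither.

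ERP1 went down in both steps, reading 11.53 and 11.39, 10.63 and 10.45, and 9.20, 9.49 and 9.07 in M2, and 11.25 and 11.14, 10.76 and 10.75, and 9.44, 9.29 and 9.31 in nsf1∆. ERV25 did so too, with 11.86 and 11.73, 10.66 and 10.71, and 10.18, 10.39 and 9.99 in M2, and 11.63 and 11.62, 10.99 and 11.01, and 10.05, 10.29 and 10.15 in nsf1∆. The early nsf1∆ call of ERP1 was lost without any single nsf1∆ array at 24 h or 20%. EMP24 read 11.63 and 11.59, 10.97 and 10.84, and 10.76, 10.78 and 10.77 in M2, and 11.45 and 11.40, 11.19 and 11.20, and 10.93, 10.87 and 10.97 in nsf1∆. The 4 partners of one complex therefore changed by unequal amounts, in M2 by -2.69 for ERP2, -2.21 for ERP1, -1.61 for ERV25 and -0.84 for EMP24, and in nsf1∆ in the same order by -2.12, -1.85, -1.46 and -0.50.

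ERV41 and ERV46 encode a pair that returns ER residents lacking the usual retrieval signal. ERV41 changed by -1.5 in M2 and by -1.64 in nsf1∆, over both steps. ERV46 changed by -0.70 and -0.56, and it passed in the first step, while its later changes of 0.06 ± 0.14 and 0.12 ± 0.14 did not pass.

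**Figure D2:**
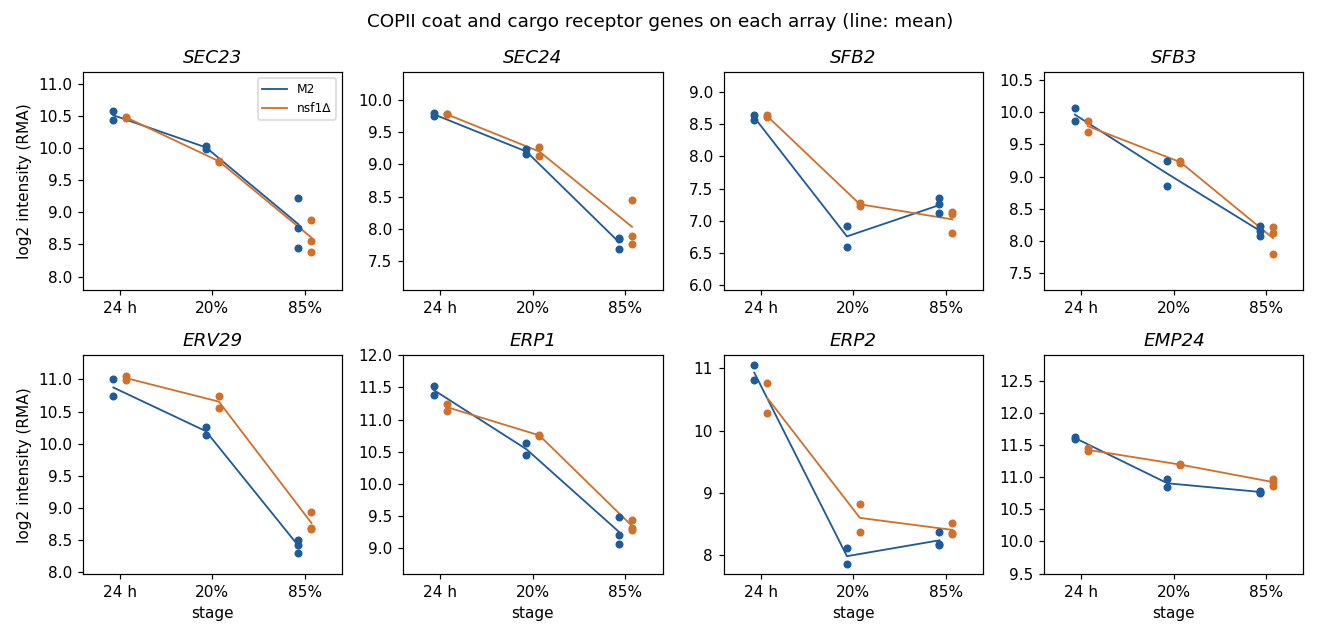
RMA log2 intensity on each array of 4 COPII coat genes (top) and 4 cargo receptor genes (bottom) at 24 h and at 20% and 85% fermented, in M2 (blue) and nsf1∆ (orange). Lines join group means. SEC24, SFB3 and ERP1 went down at each stage, SEC23 in M2 and ERV29 in nsf1∆ passed in the second step only, ERP2 passed in the first step only and SFB2 in M2 lay higher at 85% than at 20%.

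Among the fusion genes, 3 of the SNARE genes rose. BET1, an ER to Golgi SNARE and the one member rising at each step in both strains, read 8.87 and 8.79 in M2 at 24 h, 9.38 and 9.20 at 20%, and 10.03, 10.16 and 10.26 at 85%. In nsf1∆ it read 8.87 and 8.75, 9.50 and 9.26, and 10.22, 10.19 and 10.34. The stages did not overlap in either strain. It rose by 1.32 ± 0.12 in M2 and by 1.45 ± 0.12 in nsf1∆ (limma adjusted p = 3.72e-07 and 1.76e-07), or 2.50-fold and 2.73-fold. The first step in M2, 0.46, did not pass without M2 replicate 2 at 24 h (limma adjusted p = 0.0666) or without M2 replicate 1 at 20% (limma adjusted p = 0.0834), nor that in nsf1∆, 0.57, without nsf1∆ replicate 1 at 20% (limma adjusted p = 0.0593).

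SED5, the syntaxin of the early Golgi, read 7.15 and 7.26 in M2, then 6.81 and 7.0, then 8.03, 7.93 and 7.84. In nsf1∆ it read 7.03 and 7.07, 6.98 and 7.08, and 7.54, 7.77 and 7.44. It rose only in the second step of both strains, by 1.03 in M2 and by 0.55 in nsf1∆ (limma adjusted p = 9.54e-06 and 0.00158). At 85% its 3 nsf1∆ arrays lay below its 3 M2 arrays, and the difference of -0.35 ± 0.11 did not pass (limma adjusted p = 0.0636). It did pass without nsf1∆ replicate 2 at 85% (-0.45, limma adjusted p = 0.0498).

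BOS1 and SEC22 complete the SNARE set. BOS1 rose by 0.41 in M2 and by 0.45 in nsf1∆, and the M2 call was lost without M2 replicate 2 at 24 h (0.30, limma adjusted p = 0.0812). SEC22 was the exception among the SNAREs, reading 10.53 and 10.40, 10.01 and 10.04, and 9.50, 9.47 and 9.53 in M2, and 10.63 and 10.43, 10.19 and 10.01, and 9.39, 9.34 and 9.28 in nsf1∆. It fell at each stage, with a whole change of -0.96 ± 0.11 in M2 and -1.19 ± 0.11 in nsf1∆ (limma adjusted p = 3.15e-06 and 4.26e-07). Its early M2 call was lost without M2 replicate 1 at 24 h (limma adjusted p = 0.0673). The early nsf1∆ call of SEC22 was lost without nsf1∆ replicate 1 at 24 h or replicate 2 at 20% (limma adjusted p = 0.111 and 0.124). Of the 4 SNAREs that act together, 3 therefore rose and 1 fell, in both strains.

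YPT1, the Rab GTPase that switches tethering on, read 11.98 and 11.77 in M2, 12.03 and 11.80, and 12.71, 12.47 and 12.72, and 12.06 and 11.87, 11.92 and 11.87, and 12.66, 12.60 and 12.77 in nsf1∆. Its first step was 0.04 ± 0.14 in M2 and -0.07 ± 0.14 in nsf1∆ and did not pass, and it rose in the second by 0.72 and 0.78 (limma adjusted p = 0.000268 and 0.00014). USO1, a long coiled-coil tether, moved the other way, with -0.83 ± 0.19 in M2 and -0.67 ± 0.19 in nsf1∆ over the whole course. The nsf1∆ call of USO1 was lost without nsf1∆ replicate 1 at 24 h (limma adjusted p = 0.0894).

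BET3, BET5, TRS20, TRS23, TRS31 and TRS33 encode subunits of TRAPP, the complex that activates Ypt1. TRS33 read 9.37 and 9.36 in M2, then 8.21 and 8.27, then 8.45, 8.56 and 8.40, and in nsf1∆ 9.32 and 9.02, 8.68 and 8.41, and 8.39, 8.59 and 8.49. TRS31 read 9.43 and 9.30, 8.48 and 8.86, and 8.61, 8.72 and 8.20 in M2, and 9.36 and 8.94, 8.80 and 8.69, and 8.49, 8.64 and 8.20 in nsf1∆. In M2 these subunits fell early, and TRS23 late. The whole changes in M2 were -0.89 for TRS33, -0.85 for TRS31 and -0.62 for TRS23. In nsf1∆ they were -0.68, -0.71 and -1.17, and the TRS31 call was lost without nsf1∆ replicate 1 at 24 h (limma adjusted p = 0.0669).

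BET5 and TRS20 fell and came back in M2. BET5 in M2 changed by -1.05 by 20% and rose by 1.15 by 85% (limma adjusted p = 0.000296 and 3.01e-05), which left a change of 0.10 that did not pass. In nsf1∆ its first step of -0.33 did not pass, and it stood 0.44 higher at 85% than at 24 h (limma adjusted p = 0.0226). That call was lost without nsf1∆ replicate 2 at 24 h (limma adjusted p = 0.124), without nsf1∆ replicate 3 at 85% (limma adjusted p = 0.0937) and with the arrays of the contrast alone (limma adjusted p = 0.0693). The steps of TRS20 were -1.01 and 0.53 in M2 and -0.57 and 0.45 in nsf1∆, and all 4 passed. The M2 rise did not pass without M2 replicate 1 at 20% (limma adjusted p = 0.0513), nor the whole M2 change of -0.48 without M2 replicate 1 at 24 h (limma adjusted p = 0.0792). BET3, a subunit shared by the forms of TRAPP, gave changes of -0.01 ± 0.11 in M2 and 0.04 ± 0.11 in nsf1∆, and read between 10.38 and 10.64 on the 14 arrays.

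**Figure D3:**
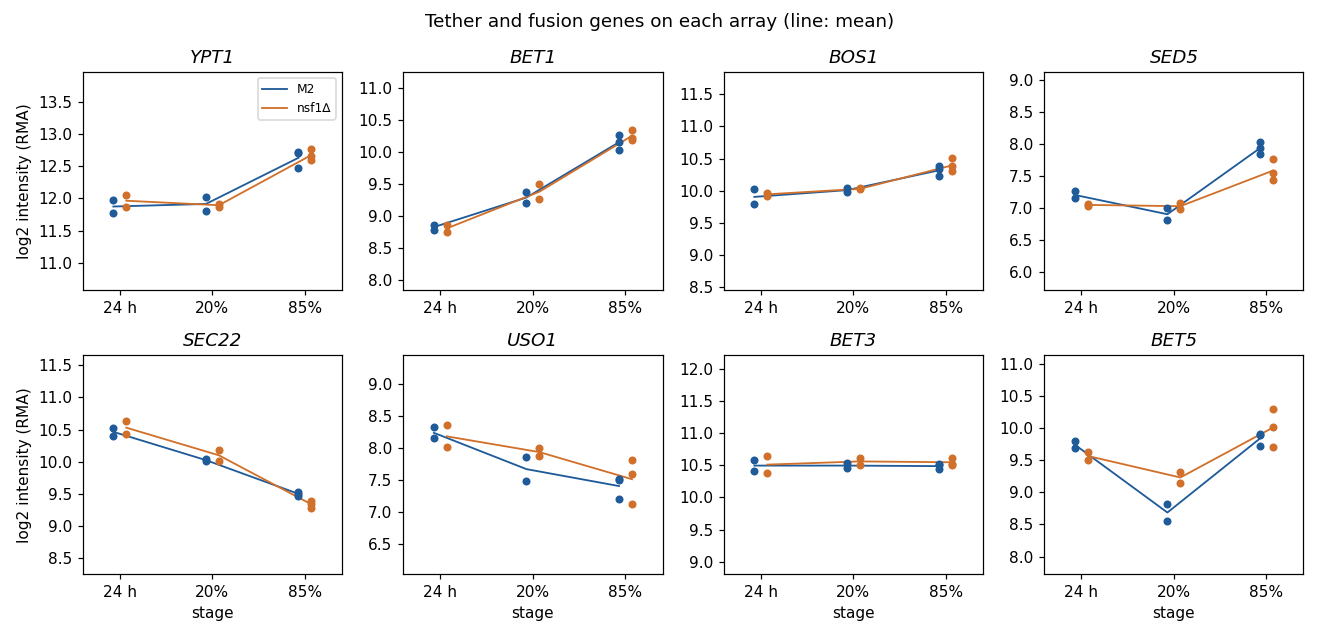
RMA log2 intensity on each array of the GTPase gene YPT1, the SNARE genes BET1, BOS1, SED5 and SEC22, and the tether genes USO1, BET3 and BET5 at the 3 stages, in M2 (blue) and nsf1∆ (orange). Lines join group means. BET1 rose at both steps, YPT1, BOS1 and SED5 at the second (BOS1 not without single arrays), SEC22 fell throughout and BET3 stayed between 10.38 and 10.64.

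The COPI coat, or coatomer, has 7 subunits among the members, COP1 (alpha), SEC26 (beta), SEC27 (beta prime), SEC21 (gamma), RET2 (delta), SEC28 (epsilon) and RET3 (zeta). COP1 read 10.01 and 10.32 in M2 at 24 h, 8.92 and 9.09 at 20%, and 7.89, 7.81 and 7.98 at 85%, and in nsf1∆ 10.07 and 9.89, 9.06 and 9.25, and 8.09, 7.73 and 7.88. Its change was -2.27 ± 0.14 in M2 and -2.08 ± 0.14 in nsf1∆ (limma adjusted p = 1.13e-08 and 2.47e-08). SEC27 read 9.46 and 9.62, 8.55 and 8.73, and 7.44, 7.53 and 7.72 in M2, and 9.50 and 9.43, 8.63 and 8.66, and 7.40, 7.38 and 7.80 in nsf1∆. SEC28 read 11.07 and 11.27, 9.90 and 10.12, and 9.27, 9.43 and 9.16 in M2, and 11.02 and 10.66, 10.25 and 10.23, and 9.53, 9.31 and 9.02 in nsf1∆. These subunits stepped down at each stage in both strains, with no overlap between stages, and each of their steps passed. The early nsf1∆ call of SEC28 was lost without nsf1∆ replicate 1 at 24 h (limma adjusted p = 0.16). It was also lost without nsf1∆ replicate 1 or 2 at 20% (limma adjusted p = 0.0762 and 0.086). The changes of the other subunits that fell, SEC26, SEC21 and RET3, were -1.55, -1.47 and -1.11 in M2 and -1.51, -1.61 and -1.04 in nsf1∆.

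RET2 was the subunit that went up. It read 9.96 and 10.13 in M2 at 24 h, 10.97 and 10.52 at 20%, and 10.84, 10.61 and 10.84 at 85%. In nsf1∆ it read 10.09 and 10.04, 10.39 and 10.44, and 11.91, 11.58 and 11.79. In M2 the 20% and 85% arrays overlapped, and the second step was 0.01 ± 0.15, whereas in nsf1∆ the 85% arrays stood above all others. It rose by 0.72 ± 0.15 in M2 and by 1.70 ± 0.15 in nsf1∆ between 24 h and 85% (limma adjusted p = 0.000663 and 2.62e-07), or 1.64-fold and 3.24-fold, while the other 6 coatomer subunits fell.

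ARF1, the GTPase on which COPI assembles, changed by -0.99 in M2 and by -1.13 in nsf1∆, and both passed. Its close copy ARF2, which is not among the 39 genes, gave 0.67 and 0.64 on its own probe set, both passing. How far the probes of either gene also read the other was not tested. GEA1 and GEA2 encode exchange factors of Arf1. GEA2 read 8.09 and 8.27, 7.27 and 7.24, and 6.18, 6.50 and 6.51 in M2, and 8.09 and 7.86, 7.52 and 7.53, and 6.65, 6.29 and 6.33 in nsf1∆. GEA1 read 6.82 and 6.83, 6.33 and 6.46, and 5.88, 5.99 and 6.07 in M2, and 6.71 and 6.73, 6.52 and 6.48, and 6.29, 6.08 and 6.34 in nsf1∆. Both fell over the course in M2 and nsf1∆, GEA2 with -1.79 and -1.55 and GEA1 with -0.84 and -0.48, with no overlap between stages. For GEA1 in nsf1∆ the whole change passed, but neither the early nor the late step did.

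**Figure D4:**
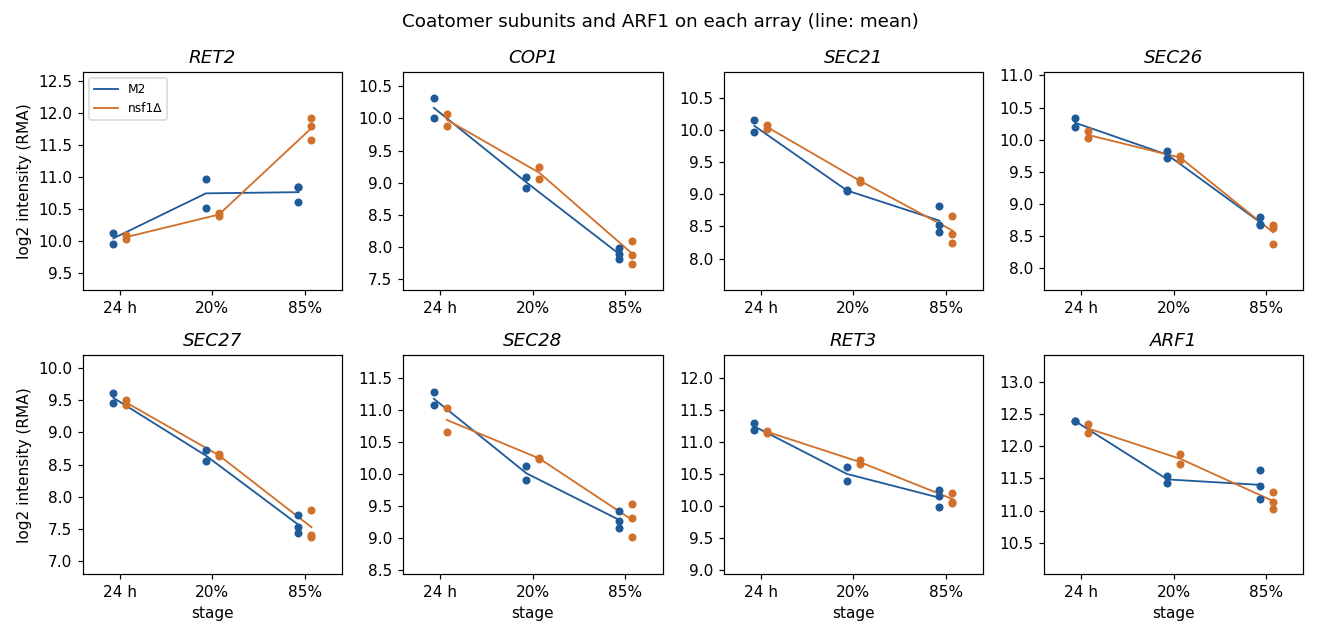
RMA log2 intensity on each array of the 7 coatomer subunit genes and ARF1 at the 3 stages, in M2 (blue) and nsf1∆ (orange). Lines join group means. RET2 is the panel that rises, to 10.61 to 10.84 in M2 and to 11.58 to 11.91 in nsf1∆ at 85%, and the other 7 panels fall in both strains.

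The steps were then taken apart. The early and the late step share the arrays at 20%, so a value that is low there by chance deepens the first step and lifts the second. From 24 h to 20% in M2, 28 of the 39 genes fell and 2 rose, BET1 and RET2, with a median of -0.70, where 26.4% of all probe sets were lower and 26.5% higher and their median was 0.02. From 20% to 85% in M2, 20 fell and 7 rose, with a median of -0.34, where 31.9% were lower and 33.1% higher. In M2, 17 genes fell in both steps, among them 6 of the 7 coatomer subunits, and 8 fell in the first step only. A further 3 fell in the second step only (SAR1, SEC23 and TRS23) and 3 fell and then rose (SFB2, BET5 and TRS20). How many of all probe sets took each course was not counted.

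In nsf1∆, 22 genes fell and 1 rose from 24 h to 20%, with a median of -0.45, beside 18.3% lower and 19.9% higher over all probe sets. From 20% to 85%, 21 fell and 8 rose, with a median of -0.57, beside 33.9% lower and 31.6% higher. Without nsf1∆ replicate 3 at 85% the late counts were 22 lower and 7 higher. In this strain 16 genes fell in both steps, 5 in the first only and 5 in the second only, again with no count over all probe sets. The early count of 23 calls in nsf1∆ was 12 without nsf1∆ replicate 1 at 24 h, 11 without nsf1∆ replicate 1 at 20% and 10 without nsf1∆ replicate 2 at 20%. In all, 15 genes lost their early nsf1∆ call without some array, SEC23, SEC24, SFB3, ERV14, ERV46, ERP1, TRS20, TRS33, BET1, SEC22, SEC26, SEC28, RET3, ARF1 and GEA2. In M2 the early count stayed between 24 and 32 when each array was left out, and 8 genes lost their call without some array, SEC12, SEC24, ERV14, USO1, TRS31, BET1, SEC22 and GEA1. Of the late calls 7 were lost so in M2, those of SFB2, SEC13, TRS20, BOS1, SEC21, RET3 and GEA1, and 5 in nsf1∆, those of SEC12, SEC31, EMP24, TRS20 and BOS1.

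Of the 28 genes that fell early in M2, 21 also fell early in nsf1∆, and the 7 that passed in M2 alone were SEC12, ERV29, EMP24, USO1, BET5, TRS31 and GEA1. The overlap of the early calls over all probe sets was not counted. Passing in 1 strain does not show a difference between strains, so the difference of the changes was tested as a strain by stage interaction. For the first step, 0 of the 39 interactions passed in limma, where 0.546% of all probe sets passed as higher in nsf1∆ and 1.05% as lower, and 8 had an unadjusted p under 0.05, beside 15.5% of all probe sets. All 8 were positive, a smaller fall or a larger rise in nsf1∆. Of the 39 estimates 29 were positive, beside 53.6% of all, with a median of 0.21 against 0.03 over all probe sets. This lean was not particular to these genes. In the neighbouring lists counted further below, positive estimates ran from 9 of 15 (ER folding) to 8 of 8 (COG tether). Their medians ran from 0.03 (ER folding) to 0.37 (ER translocation). The strain comparison at 20% below uses the same arrays at 20%, so its lean is not a separate finding. The largest of the 39 estimates was ERP2, at 1.03 ± 0.26 (limma adjusted p = 0.0681), with a 95% interval of 0.46 to 1.60. It passed without nsf1∆ replicate 1 at 24 h (1.27, limma adjusted p = 0.0203).

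The strains were compared at each stage to ask whether loss of NSF1 altered the level of these genes. At 24 h, 0 genes passed in limma and 1, ERP2, had an unadjusted p under 0.05 (-0.41, limma adjusted p = 0.49). Over all probe sets 0.0728% were higher and 0.0546% lower in nsf1∆, and 9.80% had an unadjusted p under 0.05. At 20%, again 0 passed in limma, where 0.182% of probe sets were higher and 0.164% lower. Here 8 genes had an unadjusted p under 0.05, beside 14.7% of all probe sets, all higher in nsf1∆, namely SFB2, ERV25, ERV29, EMP24, ERP2, BET5, TRS20 and TRS33. Of the 39 estimates 30 were positive, beside 57.5% of all, and their median was 0.14 against 0.04 over all probe sets. This lean was not particular to these genes. In the lists of neighbouring pathways counted further below, positive estimates ran from 17 of 26 other ER to Golgi genes to 8 of 8 COG tether genes. The medians of those lists ran from 0.08 for clathrin and adaptors to 0.26 for COG. The largest of the 39 estimates, ERP2 at 0.62, had a 95% interval of 0.22 to 1.02 (limma adjusted p = 0.143), so differences of this size are not excluded by these arrays.

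At 85%, 1 gene passed, RET2, which was higher in nsf1∆, and 0 were lower. Over all probe sets 4.95% were higher and 3.89% lower. RET2 gave 11.76 ± 0.17 (SD, n = 3) in nsf1∆ and 10.76 ± 0.13 (SD, n = 3) in M2, with no overlap. The difference was 1.00 ± 0.13 (SE), with a 95% interval of 0.71 to 1.29 (limma adjusted p = 0.00166). It passed in each of the 14 runs that left out 1 array, with values of 0.92 to 1.09. In the methods' t-test on the same arrays, after Benjamini-Hochberg adjustment, its p was 0.207. The methods name no adjustment for this test, so this value is stricter than the criterion of the study. The other 6 coatomer subunits differed between the strains by -0.15 to 0.01 at this stage, and none passed in limma. RET2's neighbours on the chromosome, the proteasome genes PRE4 and RPN12, gave 0.10 ± 0.12 and 0.04 ± 0.10 (limma adjusted p = 0.651 and 0.835).

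The genes next in order at 85% were SED5 (-0.35), TRS23 (-0.40) and ERV29 (0.35), with limma adjusted p of 0.0636, 0.0716 and 0.0742. With RET2, ERV14, SEC13, ERV46 and GEA1, they make up the 8 genes with an unadjusted p under 0.05, beside 25.8% of all probe sets. With array weights SED5, TRS23, ERV14 and GEA1 also passed (limma adjusted p = 0.019, 0.0448, 0.0359 and 0.0418). BET1 differed between the strains by 0.10 at 85%, with a 95% interval that held 0 (limma adjusted p = 0.613).

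**Figure D5:**
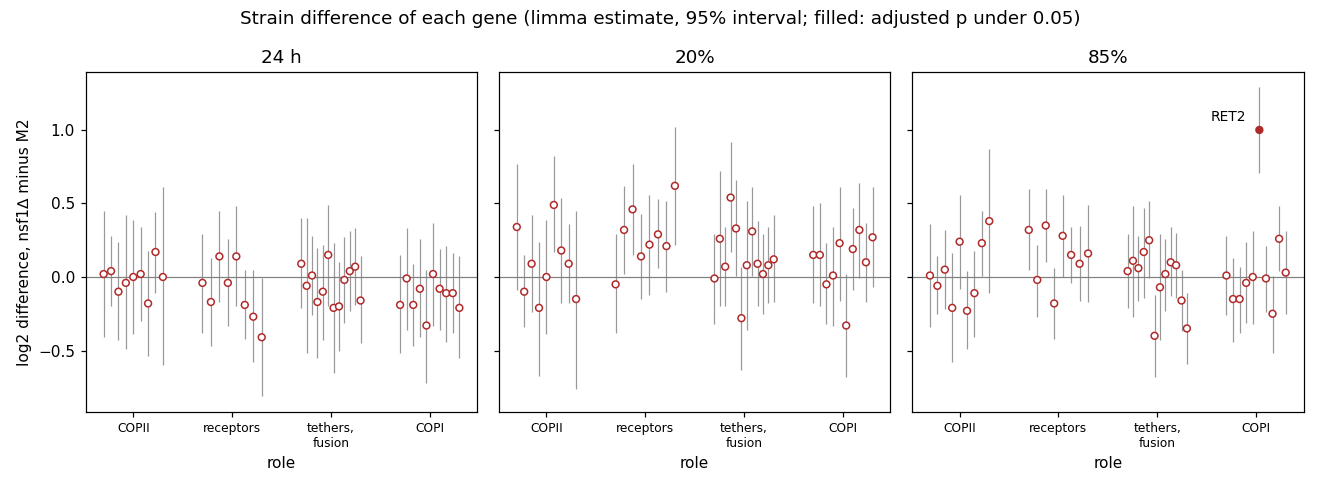
Difference between nsf1∆ and M2 in log2 intensity for each of the 39 genes at 24 h and at 20% and 85% fermented, grouped by role class. Points are limma estimates, bars are 95% intervals, and a filled point passed at an adjusted p under 0.05. RET2 at 85%, at 1.00, is the 1 filled point, and most points at 20% lie above 0.

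For the later changes, RET2 was also the 1 gene whose change differed between strains. From 20% to 85% its rise was larger in nsf1∆ by 1.33 ± 0.21 (limma adjusted p = 0.0285), where 0.0728% of all probe sets passed as higher and 0.127% as lower. From 24 h to 85% it was larger by 0.98 ± 0.21 (limma adjusted p = 0.0333), where 0.909% passed as higher and 1.09% as lower. These tests share the arrays at 85%. Neither call was steady when arrays were left out. The first held in 8 of 14 runs and was lost without M2 replicate 1 at 20% (1.10, limma adjusted p = 0.119), M2 replicate 1 or 2 at 85% (0.0721 and 0.0594), nsf1∆ replicate 1 or 2 at 20% (0.137 and 0.218) or nsf1∆ replicate 1 at 85% (0.0601). The second held in 4 of 14 and was lost without M2 replicate 1 or 2 at 24 h (0.0781 and 0.169), M2 replicate 1, 2 or 3 at 85% (0.068, 0.0661 and 0.0527), nsf1∆ replicate 2 at 24 h (0.146), nsf1∆ replicate 1 or 2 at 20% (0.0589 each), or nsf1∆ replicate 1 or 3 at 85% (0.0512 and 0.0568). The sizes stayed between 1.10 and 1.55 for the first and between 0.89 and 1.07 for the second.

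Neighbouring pathways were counted for comparison over 24 h to 85% in M2. Of all probe sets, 35.2% were lower and 38.0% higher over these stages. Of 26 other ER to Golgi genes, 11 fell and 5 rose, including SEC18, the ATPase that recycles SNAREs, at -1.35, and its partner SEC17 at 0.63. Of 11 genes of Golgi to ER retrieval, 3 fell and 4 rose, of 8 genes of the COG tether 5 fell and 1 rose, and of 19 clathrin and adaptor genes 12 fell and 3 rose. In the exocyst and plasma membrane fusion list 10 of 16 fell and 4 rose, in ER translocation 12 of 18 fell and 0 rose, and in ER folding and the unfolded protein response 9 of 15 fell and 2 rose. Their medians were -0.26, 0.15, -0.62, -0.50, -0.57, -0.54 and -0.67 in this order, each closer to 0 than those of the COPII coat, the receptors and COPI. The median of tethers and fusion, -0.24, lay within the range of these lists.

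Genes of other cell states moved over the same stages. The shares of all probe sets from 24 h to 85% were 38.0% higher and 35.2% lower in M2, and 37.0% and 36.0% in nsf1∆. Of 10 haploid-specific genes, which a MATa/α diploid represses, 8 rose and 0 fell in M2 from 24 h to 85%, and 8 rose and 1 fell in nsf1∆. Their summed signal, as log2, ran from 9.32 to 9.40 in M2 at 24 h, from 9.98 to 10.16 at 20% and from 10.99 to 11.26 at 85%. In nsf1∆ it ran from 9.48 to 9.74, from 10.00 to 10.04 and from 11.10 to 11.19. STE18 and NEJ1 were below background at 24 h in both strains. Of 18 sporulation genes, 15 rose and 1 fell in M2, with sums of 9.72 to 9.94, 10.72 to 10.97 and 11.32 to 11.49. In nsf1∆ 15 rose and 2 fell, with sums of 9.98 to 10.20, 10.88 to 10.99 and 11.45 to 11.54. SSP1 was below background at 24 h in both strains and MEI4 in M2. The part of such cells in the changes of the ER to Golgi genes was not tested.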

How the data were processed

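RNA from 14 samples was hybridised to Affymetrix Yeast Genome 2.0 arrays. The authors deposited log2 intensities from RMA, a method that subtracts background, quantile-normalises and condenses the probes of a set into 1 value. Its version is not given in the sources used here. Quantile normalisation removes any change shared by most genes. On arrays their number limits precision. Stages are named by sugars fermented, as in the paper; the labels say glucose.

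The table holds 10928 probe sets, and the 5498 that the platform annotation gives a single S. cerevisiae gene were tested. Those of S. pombe (1746), controls (213), 1 of several genes and 3470 with no gene listed were left out. Groups came from the labels. limma 3.58.1 in R 4.3.3 fitted 6 group means to all 14 arrays (degrees of freedom 8 residual, 5.14 prior). Each contrast's p-values were adjusted by Benjamini and Hochberg's method over all 5498. The fit was tested on simulated data. Tables and figures used Python 3.11.15, numpy 2.4.6, pandas 2.3.3 and matplotlib 3.10.9.

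The genes and lists were chosen with earlier results of these data known. Values on each array are given for the 3 largest rises and falls per class that passed between 24 h and 85% in M2, for genes passing between strains, for BET1 and for sets of relatives. Values of SEC31 were added after they were seen. Alternatives were other filters, probe set choices, normalisations, variance models and tests, a replicate block and leaving out each array. Promoter motifs were not analysed here.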

Additional observations from a re-analysis of the deposited data

Results flagged for a closer look

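The change of RET2, the delta subunit of coatomer, differed between the strains by a test of the difference itself. From 20% to 85% fermented its rise was larger in nsf1∆ than in M2 by 1.33 ± 0.21 (SE) on the log2 scale (limma adjusted p = 0.0285), and from 24 h to 85% by 0.98 ± 0.21 (limma adjusted p = 0.0333). In M2 the 85% arrays overlapped those at 20%, and in nsf1∆ they did not. Both tests use the same 6 arrays at 85%. Neither call was steady. The first held in 8 of the 14 runs that left out 1 array and was lost with the arrays of the contrast alone (limma adjusted p = 0.0702), and the second held in 4 of 14.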

How the results depend on the processing

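No called change of a single gene changed sign under any alternative. Over the 39 genes, 12 comparisons and all alternatives with a test, 11240 values kept their side of the threshold, 238 lost it and 45 gained it. Leaving out each array gave 24 to 32 calls for M2 at 20% against 24 h, 23 to 27 for 85% against 20% and 35 to 37 for 85% against 24 h. For nsf1∆ it gave 10 to 24, 24 to 29 and 33 to 36. For the strains it gave 0 at 24 h and at 20%, and 1 to 2 at 85%, where the second gene, without nsf1∆ replicate 2, was SED5. For the interactions it gave 0 to 1 in each of the 3 steps.

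The methods' t-test, unequal in variance, called fewer genes. Adjusted, it gave 0 of 30 for M2 at 20% against 24 h, 9 of 27 at 85% against 20%, 0 of 23 and 19 of 29 for the same steps in nsf1∆, and 0 of 1 for the strains at 85%. For 85% against 24 h the adjusted test lost 10 of the 36 calls in M2 and 11 of the 36 in nsf1∆. Unadjusted, it gave 18 in M2 and 13 in nsf1∆ at 20% against 24 h, and 2, 3 and 6 for the strains at 24 h, 20% and 85%. Shares over all probe sets were not counted for the t-test, so its counts say nothing particular to these genes. Unadjusted, limma gave 1, 8 and 8 for the strains at these stages and 8, 4 and 5 for the interactions at 20% against 24 h, 85% against 20% and 85% against 24 h. Over all 5498 probe sets it gave 539, 810 and 1419 for the strains and 854, 764 and 951 for the interactions, in the same order. A fold change of at least 2 beside the adjusted p left 9, 10 and 19 genes in M2 and 2, 11 and 22 in nsf1∆, 0 for the strains at 85% and 0 for the interaction at 85% against 24 h. Array weights gave 5 genes for the strains at 85%. With the arrays of the contrast alone, the interaction of RET2 at 85% against 20% was lost (limma adjusted p = 0.0702), leaving 0.

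Replicate numbers did not pair the samples throughout. Over 31 pairs of arrays with the same number in different groups, r of their deviations ran from -0.512 to 0.574, 9 exceeded 0.1, and 6 of 14 arrays correlated best with their own number. The value of 0.574 was that of replicate 3 of both strains at 85%. In a group of 2 arrays the deviations mirror each other, so pairs between such groups repeat the same r and these counts are not of independent pairs. The replicate block gave 2 genes for the strains at 85%, RET2 and SED5, moved the COPI median in M2 to -1.59, lost the BET5 rise in nsf1∆ from 24 h to 85% (limma adjusted p = 0.0579) and moved no other count by over 1.5 times. Without replicate 3 of both strains at 85%, chosen after seeing the data, 0 interactions passed at 85% against 20% or 24 h, and the medians were -1.61 for receptors and -1.59 for COPI in M2 and -1.46 for COPI in nsf1∆.

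Leaving out each array moved the medians at 85% against 24 h, in M2, to -1.14 to -0.98 for COPII, -1.82 to -1.61 for receptors, -0.34 to -0.16 for tethers and fusion and -1.59 to -1.43 for COPI. In nsf1∆ they were -1.07 to -0.98, -1.63 to -1.49, -0.19 to 0.11 and -1.57 to -1.40, the tether value of 0.11 being that without replicate 1 at 24 h. Without the dimmest 25% of probe sets, which removed SEC16, SFB2, SED5, GEA1 and GEA2, the tether medians were -0.48 and -0.12. The causes were not tested.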
